A study of Mus musculus with 6 samples.

Results

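The genes described here are 33 markers of the reactive astrocyte state, read from a cerebellar RNA sequencing table of 53746 genes. They were picked by symbol, by a rule that uses no measured value but was set with earlier results of these data known, and all 33 were found in the table. They fall into 3 subsets: 15 pan-reactive genes, 6 A1 genes and 12 A2 genes. Whole cerebella of 6 mice aged 2 months were sequenced. In 3 mice, N153S LSL/LSL Pcp2-cre (Pcp2-cre below), both copies of *Sting1* carried the constitutively active N153S mutation behind a loxP-flanked stop cassette, and Cre under the Purkinje cell gene *Pcp2* removed the cassette in Purkinje cells. The other 3 mice, N153S LSL/LSL (control below), carried the same 2 conditional alleles with no Cre. In each genotype mice 1 and 2 were male and mouse 3 was female. The *Pcp2* promoter drives Cre in Purkinje cells and not in astrocytes, and the whole tissue that was sequenced holds both. Because RNA came from the whole tissue, more cells of a type and more RNA per cell cannot be told apart in any value given here.

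Astrocytes respond to injury and inflammation by changing shape and gene expression. The usual sign is more of the intermediate filament protein GFAP, with the related filament proteins vimentin, nestin and synemin. Pan-reactive genes rise in many kinds of injury, A1 genes are those associated with inflammation after endotoxin and A2 genes those associated with ischemia, and present usage treats the last 2 classes as panels rather than as fixed cell states. In the cerebellum the main astrocytes beside those of the granular layer are Bergmann glia, radial cells that wrap the dendrites of Purkinje cells. The comparison of the genotypes asked which of these genes differed in the cerebellum when STING was activated in Purkinje cells.

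Libraries held 6733178 to 10178218 counts per mouse, so that 3 counts, the floor used here, stood for 0.296 to 0.445 CPM (counts scaled to the library size). *Sting1* had 186, 183 and 264 counts in the controls and 337, 296 and 240 in the Pcp2-cre mice, a log2 fold change of 0.57 (standard error, SE, 0.0969, edgeR adjusted p = 3.59e-04). The study cites public single-cell data with *Sting1* RNA in microglia and little or none in Purkinje cells. Microglial markers rose in the same mice (below), and the part of each cell type in the *Sting1* value was not tested. Choroid plexus markers stood apart in controls 1 and 2, with summed levels of 1628 and 2301 CPM. Their sum in control 3 was 164 CPM, within the range of 164 to 264 CPM of the Pcp2-cre mice. The high level was thus seen in controls only and ran largely along with genotype. Genes whose adjusted p rose above 0.05 when a score of these markers entered the fit are named below.

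The filament gene *Gfap* and several protease inhibitor and receptor genes of the pan-reactive subset were higher in Pcp2-cre cerebella (the plot of fold changes). Genes were called higher or lower by the quasi-likelihood test of edgeR, at an adjusted p (Benjamini-Hochberg, over all 16961 genes tested) of at most 0.05 and an absolute log2 fold change of 0.5 or more. Of the 33 genes, 27 had enough counts to be tested, 8 were called higher in Pcp2-cre cerebella and 1 was called lower. Over all genes tested, 1.37% were called higher and 1.79% lower, 3.17% in all. The pan-reactive subset held 7 of the 8 genes called higher, *Serpina3n*, *Gfap*, *Timp1*, *Aspg*, *S1pr3*, *Osmr* and *Cd44*, out of 13 tested, and none called lower. None of the 6 A1 genes was called in either direction by edgeR or by DESeq2, and at an unadjusted p under 0.05 there was 1 higher (*Srgn*) and 1 lower (*Fkbp5*). Of 8 A2 genes tested, *Cd14* was called higher and *B3gnt5* lower. A further 3 genes passed the adjusted p with a smaller fold change, namely *Vim*, *S100a10* and *Fkbp5*, as did 4.57% of all genes tested. The median log2 fold change was 0.56 over the tested pan-reactive genes, 0.06 over the A1 genes and 0.19 over the tested A2 genes, beside 0.0045 over all genes tested. With no filter on low counts it was 0.40, 0.05 and 0.18 over the whole subsets of 15, 6 and 12 genes. Without control 3 the genes called higher numbered 7, and with the choroid plexus score in the fit 6. *Timp1*, *Cd14* and *Cd109* passed the filter on low counts mainly through the Pcp2-cre mice, where they were higher. With no filter the genes called higher numbered 8. With at least 10 counts needed in every mouse, a filter that drops all of them, 24 genes were tested and 6 called higher. The medians above are descriptions, and the difference between the subsets was not tested.

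**Figure D1:**
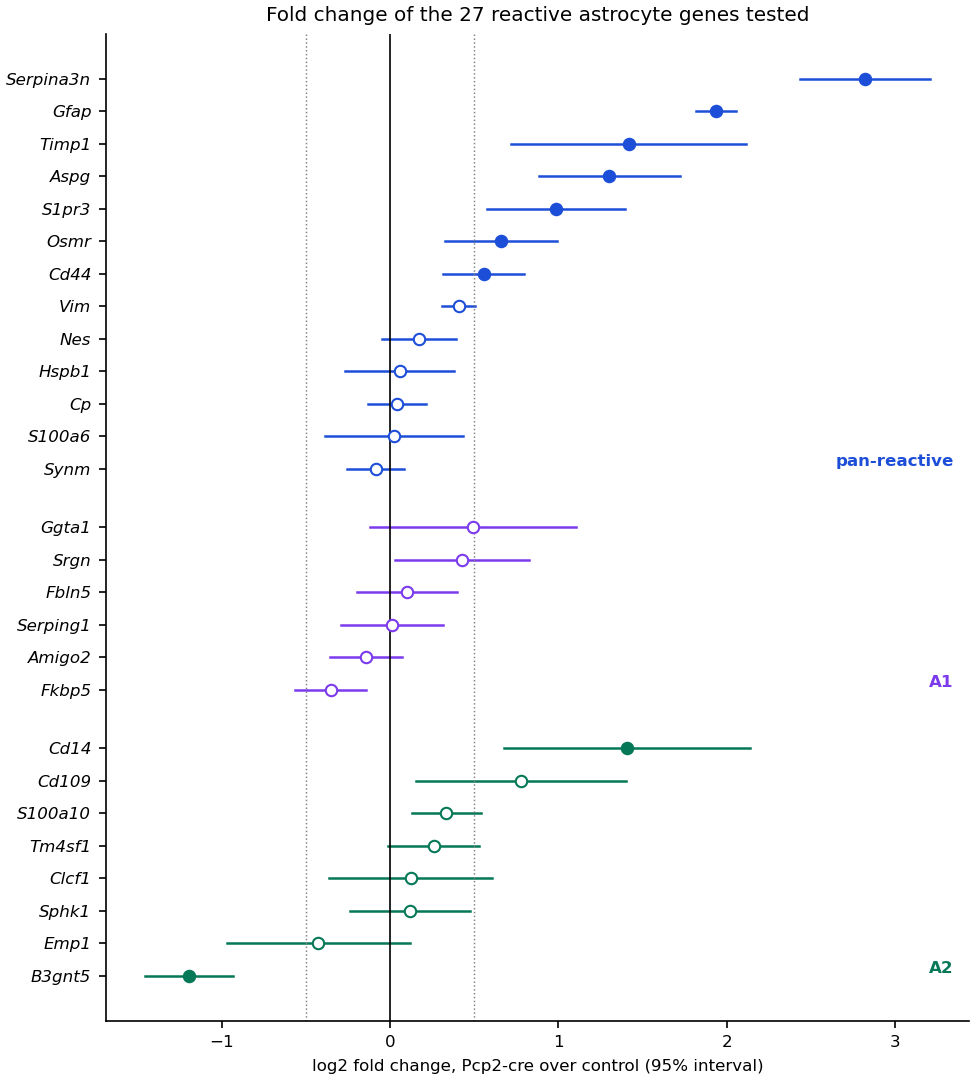
Log2 fold change (Pcp2-cre over control) of the 27 genes tested, by subset, with 95% intervals from edgeR. Filled points mark called genes, open points the others, and dotted lines a log2 fold change of 0.5 in either direction. The pan-reactive genes reach from -0.09 to 2.82, the A1 genes from -0.35 to 0.49 and the A2 genes from -1.19 to 1.41.

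Without regard to any test, every Pcp2-cre mouse lay above every control in 14 of the 33 genes, *Tgm1* and *Ptx3* among them, which were too low to test. The opposite order, with no Pcp2-cre mouse as high as any control, was seen in 3 (*Fkbp5*, *Amigo2* and *B3gnt5*). Over all genes tested these patterns had shares of 10.9% and 11.4%. The 9 pan-reactive genes above without overlap were the 7 called ones, *Vim* and *Nes*. No A1 gene lay above without overlap. The map of all 33 genes shows the deviation of each mouse from the control mean. Over the 13 tested pan-reactive genes the median deviation was 0.48, 0.52 and 0.60 on the log2 scale in Pcp2-cre mice 1, 2 and 3. The same median was -0.02, 0.03 and below 0.01 in size in the controls.

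**Figure D2:**
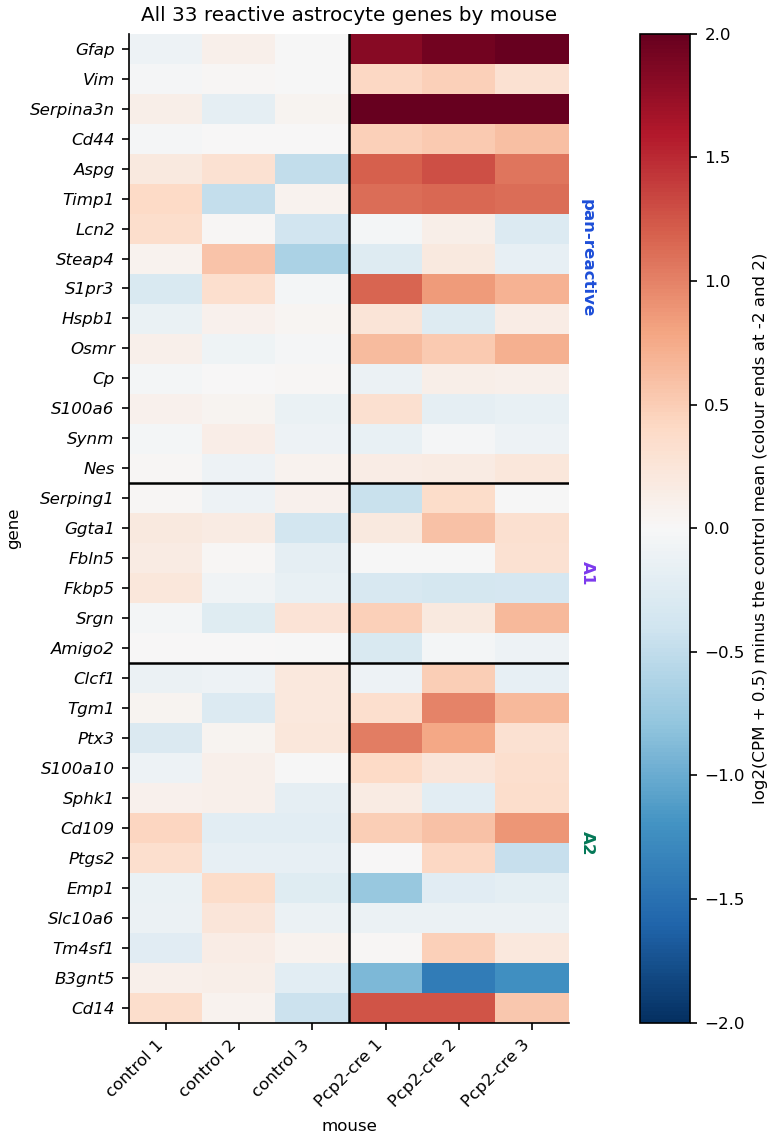
Level of each of the 33 genes (rows, by subset) in each of the 6 mice (columns), as log2(CPM + 0.5) minus the mean of the controls, with colors ending at -2 and 2. *Gfap*, *Serpina3n*, *Aspg* and *Timp1* are red in all 3 Pcp2-cre mice, *B3gnt5* is blue in all 3, and in no A1 row are all 3 Pcp2-cre mice above every control.

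The bases just upstream of the annotated start are printed for 5 genes on which the results turn: *Gfap* had the smallest p of the whole table, *Serpina3n* the highest fold change among the 27, *B3gnt5* was the gene that fell, and *Vim* and *Steap4* share a motif with *Serpina3n*. Each run is the 250 bases before the RefSeq start, read 5' to 3' on the gene's own strand (GRCm38.p6, a build older than the GRCm39 of the count table). Capitals mark matches to an NF-kB type sequence (GGGNN followed by TTTCC) or to TTCNNNGAA, a STAT type sequence, on either strand. The windows are chr11:102897201-102897450 on the minus strand for *Gfap*, chr2:13574061-13574310 on the plus strand for *Vim*, chr12:104406458-104406707 on the plus strand for *Serpina3n*, chr5:7960222-7960471 on the plus strand for *Steap4* and chr16:19759984-19760233 on the plus strand for *B3gnt5*.
Gfap: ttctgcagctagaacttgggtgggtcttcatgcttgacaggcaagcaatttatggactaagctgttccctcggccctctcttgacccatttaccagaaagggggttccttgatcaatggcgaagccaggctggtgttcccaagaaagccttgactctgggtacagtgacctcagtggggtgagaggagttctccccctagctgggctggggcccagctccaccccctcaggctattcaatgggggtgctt
Vim: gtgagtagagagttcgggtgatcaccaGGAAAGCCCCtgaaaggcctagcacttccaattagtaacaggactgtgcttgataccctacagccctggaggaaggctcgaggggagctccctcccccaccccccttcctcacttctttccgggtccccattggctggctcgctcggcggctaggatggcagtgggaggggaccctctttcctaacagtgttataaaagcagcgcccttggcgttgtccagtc
Serpina3n: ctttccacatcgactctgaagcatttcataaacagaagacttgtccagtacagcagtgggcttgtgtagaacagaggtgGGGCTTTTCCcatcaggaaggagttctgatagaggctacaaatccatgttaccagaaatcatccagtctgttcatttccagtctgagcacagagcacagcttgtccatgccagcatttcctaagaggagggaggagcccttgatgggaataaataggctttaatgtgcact
Steap4: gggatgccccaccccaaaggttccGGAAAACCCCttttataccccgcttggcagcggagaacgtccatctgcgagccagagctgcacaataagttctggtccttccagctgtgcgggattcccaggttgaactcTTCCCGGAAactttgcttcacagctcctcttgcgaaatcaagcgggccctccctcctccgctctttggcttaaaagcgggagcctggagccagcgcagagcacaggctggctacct
B3gnt5: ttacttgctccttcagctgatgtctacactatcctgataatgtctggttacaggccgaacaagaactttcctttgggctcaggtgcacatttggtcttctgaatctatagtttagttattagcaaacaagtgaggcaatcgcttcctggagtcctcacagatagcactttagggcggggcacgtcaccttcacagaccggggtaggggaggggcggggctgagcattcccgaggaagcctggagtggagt

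In the *Serpina3n* window the match is GGGCTTTTCC, from 171 to 162 bases before the start. *Vim* has GGAAAGCCCC, the same motif on the other strand, 223 to 214 bases before its start. *Steap4*, which did not pass the filter on low counts, has both GGAAAACCCC at 226 to 217 bases and the STAT type match TTCCCGGAA at 116 to 108 bases. The windows of *Gfap* and *B3gnt5* hold none of the letters searched. RefSeq windows were found for 28 of the 33 genes. The NF-kB type letters were in 3 of the 28 (*Serpina3n*, *Vim* and *Steap4*), beside 1.65% of 27025 genes in the table. The STAT type letters were in 4 (*Emp1*, *Sphk1*, *Steap4* and *Tgm1*), beside 8.13%, and TGANTCA, an AP-1 type sequence that overlaps a STAT type match in *Emp1*, was in 3 (*Cp*, *Emp1* and *Sphk1*), beside 7.82%. Of the 7 genes with any match, *Serpina3n* was the one called. A match of letters is a description and not a site shown to be bound, and genes with several starts had several windows searched.

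Filament genes of the astrocyte cytoskeleton were led by *Gfap* (ENSMUSG00000020932, on the minus strand of chromosome 11). It had 112, 129 and 120.2 CPM in controls 1, 2 and 3 and 428, 460.0 and 497 CPM in Pcp2-cre mice 1, 2 and 3. Every Pcp2-cre mouse was far above every control, and the groups were narrow. The means were 121 ± 8.51 and 462 ± 34.3 CPM (SD, n = 3 mice each). The log2 fold change was 1.94 (SE 0.0561, 95% interval 1.82 to 2.05, edgeR adjusted p = 4.43e-15). By p it ranked 1 of 16961 genes. *Vim*, the gene of vimentin, had 146, 152 and 149 CPM in the controls and 199, 208 and 185 CPM in the Pcp2-cre mice. The groups did not overlap, with a log2 fold change of 0.41 (SE 0.0461, edgeR adjusted p = 2.19e-06), under the fold threshold for a call. Its adjusted p stayed at or under 0.05 in all 15 alternative analyses. *Nes*, the gene of nestin, had 14.2, 12.9 and 14.6 CPM against 15.4, 15.5 and 16.4 CPM. These groups did not overlap either, but the log2 fold change of 0.17 (95% interval -0.05 to 0.39) was within the error (edgeR adjusted p = 0.447). *Synm*, the gene of synemin, which joins filaments made by the others, overlapped between groups, with a log2 fold change of -0.09 (95% interval -0.25 to 0.08).

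Secreted protease inhibitors gave the highest fold change and one of the lowest counts. *Serpina3n* (ENSMUSG00000021091, chromosome 12 of GRCm39, 104372810 to 104380597), a serine protease inhibitor gene and a common marker of reactive astrocytes, had 2.49, 1.93 and 2.37 CPM in the controls and 17.1, 13.5 and 18.6 CPM in the Pcp2-cre mice. The lowest Pcp2-cre mouse stood several-fold above the highest control. The fold of the means was 7.23, and the log2 fold change 2.82 had a 95% interval of 2.44 to 3.21 (edgeR adjusted p = 8.14e-10). The other *Serpina3* paralogs, whose sequences are similar, had at most 3 counts each in any mouse. *Timp1*, which encodes an inhibitor of matrix metalloproteinases, had 10, 3 and 9 counts in the controls and 18, 21 and 16 in the Pcp2-cre mice. Its groups did not overlap, and the log2 fold change was 1.42 (SE 0.335, edgeR adjusted p = 0.00857). The call rested on few counts: the adjusted p was 0.146 with DESeq2, 0.0738 with the choroid plexus score in the fit and 0.0590 without Pcp2-cre mouse 2.

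Receptors at the cell surface rose by less. *S1pr3*, a receptor for sphingosine-1-phosphate, had 3.36, 5.49 and 4.15 CPM in the controls and 10.1, 8.05 and 7.22 CPM in the Pcp2-cre mice. All Pcp2-cre mice were above the controls, with a log2 fold change of 0.99 (SE 0.195, edgeR adjusted p = 0.00178). On the deposited FPKM values, with 1 added before the logarithm, limma gave an adjusted p of 0.0556. *Osmr*, the oncostatin M receptor subunit that pairs with gp130, had 5.84, 5.05 and 5.33 CPM against 8.66, 7.94 and 9.13 CPM. It rose without overlap by a log2 fold change of 0.66 (SE 0.160, edgeR adjusted p = 0.0107). Its call was lost with DESeq2 (adjusted p = 0.149), with the choroid plexus score in the fit (0.0619), with limma on log2(FPKM + 1) (0.0991) and without Pcp2-cre mouse 3 (0.0576). *Cd44*, the hyaluronan receptor, had 9.70, 9.94 and 9.87 CPM against 13.9, 14.4 and 15.2 CPM. The gap between the groups was wide beside their spread, but the log2 fold change of 0.56 (SE 0.116, edgeR adjusted p = 0.00285) was close to the fold threshold, and DESeq2 gave an adjusted p of 0.0697. *Aspg*, an asparaginase family gene, had 4.23, 4.60 and 2.47 CPM in the controls and 9.06, 9.66 and 8.25 CPM in the Pcp2-cre mice. Control 3 was the lowest mouse, and each Pcp2-cre mouse exceeded every control. The log2 fold change was 1.30 (SE 0.201, edgeR adjusted p = 1.27e-04), and the call held in all 15 alternatives.

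**Figure D3:**
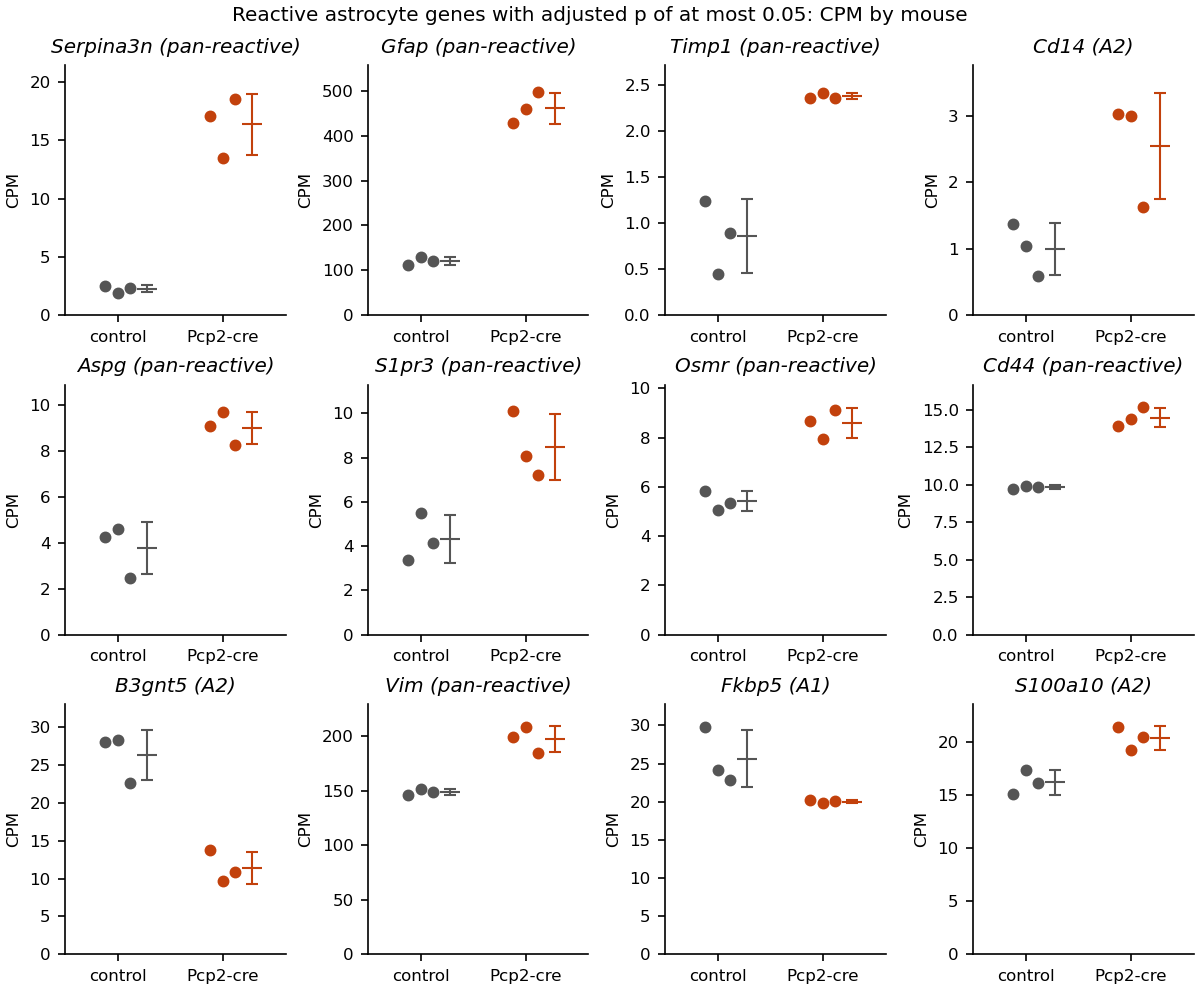
CPM by mouse of the 12 genes with an adjusted p of at most 0.05, with each axis starting at 0. Points are mice in the order 1, 2, 3 and the bar beside them is the mean with its SD (n = 3). *Gfap* has control points of 112 to 129 CPM and Pcp2-cre points of 428 to 497 CPM, and *B3gnt5* and *Fkbp5* are the genes lower in Pcp2-cre mice.

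The other 5 pan-reactive genes included several that are strongly induced in other injuries. *Lcn2*, an iron-siderophore binding protein, had 4, 2 and 1 counts in the controls and 2, 3 and 1 in the Pcp2-cre mice, at or near the floor in both groups. *Steap4*, a metalloreductase, had no more than 12 counts in any mouse. Neither passed the filter on low counts. Fitted with no filter, *Lcn2* had a log2 fold change of -0.13 (95% interval -1.80 to 1.55) and *Steap4* of -0.09 (95% interval -0.90 to 0.71), with edgeR adjusted p of 0.987 and 0.979. *Cp*, the gene of the ferroxidase ceruloplasmin, was well counted and nearly level, with 28.7 ± 0.718 CPM in controls and 29.5 ± 2.59 CPM in Pcp2-cre mice (SD, n = 3 each). Its 95% interval of -0.13 to 0.21 on the log2 scale excludes a change of the size seen for *Cd44*. *Hspb1*, a small heat shock protein, and *S100a6*, a calcium-binding protein, also overlapped between groups, with log2 fold changes of 0.06 (95% interval -0.27 to 0.38) and 0.03 (95% interval -0.38 to 0.43).

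The A1 genes did not move in one direction. *Fkbp5*, a co-chaperone of the glucocorticoid receptor, had 29.8, 24.2 and 22.9 CPM in the controls and 20.2, 19.8 and 20.04 CPM in the Pcp2-cre mice. The Pcp2-cre values were close together just below the lowest control, with a log2 fold change of -0.35 (SE 0.101, edgeR adjusted p = 0.0342) that is under the fold threshold. Without control 1, the highest mouse, the adjusted p was 0.235, with the choroid plexus score in the fit it was 0.446 (log2 fold change -0.22), and it was above 0.05 in 8 of 15 alternatives. *Srgn*, the gene of the proteoglycan serglycin, which is abundant in cells of the blood lineage, had 4.85, 4.16 and 6.12 CPM against 7.09, 5.75 and 8.10 CPM, with overlap. Its log2 fold change of 0.43 had an edgeR adjusted p of 0.231. *Ggta1*, an alpha-galactosyltransferase, had at most 24 counts in a mouse and an uncertain log2 fold change of 0.49 (95% interval -0.12 to 1.11). *Amigo2*, an adhesion protein, had 17.7, 17.7 and 17.5 CPM in the controls and 14.2, 17.1 and 16.4 CPM in the Pcp2-cre mice. All Pcp2-cre mice were lower, 2 of them by little, and the log2 fold change of -0.14 had an edgeR adjusted p of 0.530. *Serping1*, the gene of complement C1 inhibitor, had 17.4 ± 1.16 CPM in controls and 17.5 ± 4.97 CPM in Pcp2-cre mice (SD, n = 3 each), with a log2 fold change of 0.01 (95% interval -0.29 to 0.32). *Fbln5*, an elastic fiber protein, had a log2 fold change of 0.10 (95% interval -0.20 to 0.40).

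Further genes of the published panels that are not among the 33 were read from a list of 8, of which 6 were tested, 2 were called higher and none lower. Complement *C3*, often used as the leading A1 marker, had 2, 1 and 8 counts in the controls and 23, 33 and 35 in the Pcp2-cre mice. The groups were widely apart, with a log2 fold change of 3.12 (SE 0.396, edgeR adjusted p = 1.08e-05). The immunoproteasome gene *Psmb8* had 7, 3 and 11 counts against 22, 28 and 24, and a log2 fold change of 1.91 (SE 0.313, edgeR adjusted p = 2.50e-04). *H2-D1*, a class I MHC gene named here after its values were seen, was lower in every Pcp2-cre mouse by a log2 fold change of -0.31 (SE 0.0503, edgeR adjusted p = 2.29e-04). Both *C3* and *Psmb8* passed the filter on low counts through the Pcp2-cre mice, where they were higher. These genes are also expressed by microglia, whose markers rose in the same mice (below).

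The A2 genes split in direction. *B3gnt5* (ENSMUSG00000022686, chromosome 16 of GRCm39, 19578948 to 19591507), which encodes an N-acetylglucosaminyltransferase that starts the lacto-series glycolipids, had 28.1, 28.3 and 22.6 CPM in the controls and 13.8, 9.66 and 10.9 CPM in the Pcp2-cre mice. Every Pcp2-cre mouse was well below every control. The mean fell by 56.5%, with a log2 fold change of -1.19 (SE 0.126, 95% interval -1.46 to -0.93, edgeR adjusted p = 7.84e-07), and the call held in all 15 alternatives. *B3gnt5* fell in the same mice as the markers of Purkinje cells, of which 6 of 8 tested were called lower, none was at 0, and the summed level was 7393 to 8124 CPM in controls and 4095 to 4540 CPM in Pcp2-cre mice. The part of Purkinje cells in the value of *B3gnt5* was not tested. *Cd14*, the endotoxin co-receptor of myeloid cells, had 11, 7 and 6 counts in the controls and 23, 26 and 11 in the Pcp2-cre mice. The lowest Pcp2-cre mouse, mouse 3, had 1.62 CPM and the highest control 1.37 CPM, so the groups were adjacent. The log2 fold change was 1.41 (SE 0.351, edgeR adjusted p = 0.0130), and it was not called without control 3 (adjusted p = 0.0812), without Pcp2-cre mouse 1 (0.0904), without Pcp2-cre mouse 2 (0.124), with DESeq2 (0.169) or with limma on log2(FPKM + 1) (0.0608).

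Among the other A2 genes tested, *S100a10*, the partner of annexin A2, had 15.05, 17.4 and 16.1 CPM in the controls and 21.4, 19.2 and 20.5 CPM in the Pcp2-cre mice. The groups did not overlap, and the log2 fold change of 0.33 (SE 0.0987, edgeR adjusted p = 0.0399) was under the fold threshold. The adjusted p was above 0.05 in 9 of 15 alternatives, among them the fit with the choroid plexus score (0.172). *Cd109*, a membrane protein that binds TGF-beta, had 2.11, 1.19 and 1.18 CPM against 2.23, 2.42 and 3.09 CPM. Pcp2-cre mouse 1 was close to control 1, and the log2 fold change of 0.78 (95% interval 0.15 to 1.40) had an edgeR adjusted p of 0.146. *Emp1*, an epithelial membrane protein gene, had the other negative value, -0.43 (95% interval -0.97 to 0.12). *Tm4sf1*, a surface protein rich in endothelial cells, had a log2 fold change of 0.26 (95% interval -0.01 to 0.53). *Sphk1*, the kinase that makes the ligand of *S1pr3*, had 0.12 (95% interval -0.24 to 0.47), and *Clcf1*, a cytokine of the IL-6 family, had 0.12 (95% interval -0.36 to 0.61). The intervals of *Tm4sf1* and *Clcf1* include 0.5, so a change of the size needed for a call could not be told from none at this depth.

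The remaining 4 A2 genes were too low to test. *Tgm1*, a transglutaminase, had 1, 0 and 2 counts in the controls and 2, 6 and 3 in the Pcp2-cre mice. *Ptx3*, a secreted pentraxin, had 1, 2 and 4 counts against 8, 7 and 3. In CPM the groups of both genes were apart, with the Pcp2-cre mice higher: *Tgm1* reached 0.197 CPM in controls and began at 0.263 CPM in Pcp2-cre mice, and *Ptx3* reached 0.395 CPM and began at 0.442 CPM. Fitted with no filter, their edgeR adjusted p was 0.337 for *Tgm1* and 0.245 for *Ptx3*. *Ptgs2*, the gene of cyclooxygenase 2, had at most 6 counts in a mouse with overlapping groups, and *Slc10a6*, a steroid sulfate transporter, had 1 count in a single control.

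Levels of different genes can be set side by side on the authors' FPKM scale, which divides by transcript length (the plot of FPKM values). In controls 3 of the 33 genes had a mean above 10 FPKM, 16 lay from 1 to 10 FPKM and 14 below 1 FPKM. *Vim* was the highest in controls, with 61.3 ± 2.75 FPKM, before *Gfap* with 39.04 ± 2.75 FPKM and *S100a10* with 18.6 ± 0.850 FPKM (SD, n = 3 each). These 3 genes differed from each other beyond their spread. In Pcp2-cre mice the order of the first 2 was the opposite, with *Gfap* at 163 ± 8.76 FPKM and *Vim* at 83.3 ± 6.98 FPKM. *Serpina3n* rose from 0.790 ± 0.0973 to 6.58 ± 0.442 FPKM (SD, n = 3 each), from the 0.716 to 0.9003 FPKM of single controls to 6.18 to 7.06 FPKM. *B3gnt5* had 5.53 ± 0.617 FPKM in controls, above *Serpina3n*, and 2.57 ± 0.511 FPKM in Pcp2-cre mice, below it. On the CPM scale *Gfap* alone gave 21.1% to 23.2% of the summed CPM of the 33 genes in controls and 46.8% to 50.6% in Pcp2-cre mice. The sum was 527 to 558 CPM in controls and 914 to 981 CPM in Pcp2-cre mice with *Gfap*, and 407 to 429 against 484 to 505 CPM without it. The summed A1 genes overlapped between groups, with 74.2 to 83.2 CPM in controls and 65.9 to 77.9 CPM in Pcp2-cre mice, and so did the A2 genes, with 69.1 to 79.7 and 68.7 to 69.7 CPM. The A2 sum includes the fall of *B3gnt5*, from a mean of 26.4 CPM in controls to 11.4 CPM in Pcp2-cre mice. Of the 8 A2 genes tested, 6 had a log2 fold change above 0, so the level sum does not describe the other A2 genes.

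**Figure D4:**
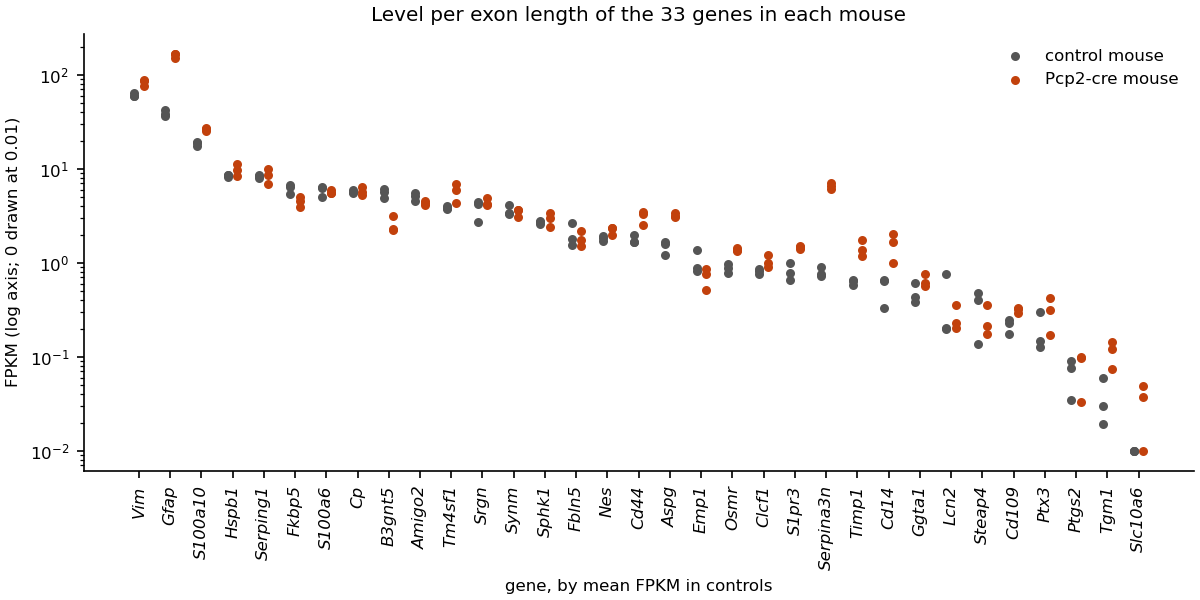
FPKM of each of the 33 genes in each mouse (log axis, 0 drawn at 0.01), with genes ordered from left to right by their mean in controls. *Vim*, *Gfap* and *S100a10* are the 3 genes above 10 FPKM, and *Serpina3n* moves from below 1 FPKM in controls to above 6 FPKM in Pcp2-cre mice.

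Genes that act around the 33 were read from lists of further astrocyte response genes, inducing ligands, receptors and regulators. Of 10 other astrocyte response genes, all tested, 2 were called higher and 1 lower. Complement *C4b* had a log2 fold change of 2.23 (SE 0.0987, edgeR adjusted p = 4.48e-12) and *Chi3l1*, a secreted chitinase-like protein gene named *Chil1* in the table, 0.66 (SE 0.180, edgeR adjusted p = 0.0259). *Tnc*, the gene of the matrix protein tenascin C, which Bergmann glia express, fell from 240, 213 and 251 counts to 102, 87 and 90 counts, a log2 fold change of -1.23 (SE 0.120, edgeR adjusted p = 2.63e-07). Of 12 ligand genes known to induce reactivity, 5 were tested and 4 were called higher. They were *C1qa* (log2 fold change 2.10), *C1qb* (1.99) and *C1qc* (2.41), which microglia make, and *Tgfb1* (0.76). The cytokine genes *Il1a*, *Tnf*, *Il1b*, *Il6*, *Lif*, *Osm* and *Cntf* were too low to test, with at most 8 counts in a mouse. *Osm*, the ligand of *Osmr*, was at 0 in all controls and had 2, 1 and 0 counts in the Pcp2-cre mice, under the floor in both groups. Of 8 receptor genes tested *Tgfbr1* was called higher, by a log2 fold change of 0.78 (SE 0.1004, edgeR adjusted p = 1.32e-05), and none lower. Of 10 genes of transcription factors and their regulators, *Fos* was called higher by 0.51 (SE 0.0817, edgeR adjusted p = 2.22e-04), just past the fold threshold, and none lower. *Stat3*, which drives *Gfap* in many settings, was not called, at a log2 fold change of 0.16 (SE 0.0569, edgeR adjusted p = 0.0928). Every Pcp2-cre mouse was above every control for it. RNA does not measure the activity of the protein, which was not tested.

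General markers of astrocytes and Bergmann glia differed little in sum (the plot of marker lists). Of 14 tested, *Aqp4*, the water channel of astrocyte endfeet, was called higher by a log2 fold change of 0.51 (SE 0.0490, edgeR adjusted p = 2.37e-07) and none was called lower. Others had an edgeR adjusted p of at most 0.05 under the fold threshold, in both directions. Higher were *Gja1* (log2 fold change 0.37), *Ndrg2* (0.17) and *S100b* (0.13), and lower were *Gdf10* (-0.25), *Slc1a3* (-0.22) and *Kcnj10* (-0.17). The summed level of the 14 was 4611 to 4638 CPM in controls and 4767 to 4851 CPM in Pcp2-cre mice. All defining markers were detected in every group, so the tissue held astrocytes in both genotypes. Of 10 microglial markers, 7 were called higher, none was at 0, and their sum was 107 to 112 CPM in controls and 250 to 269 CPM in Pcp2-cre mice. *Cd14*, *Srgn*, *Cd44* and *Timp1* are expressed by microglia or other myeloid cells as well as by astrocytes, and the part of microglia in their values was not tested. No gene was called among the markers of endothelial cells (8 tested), mural cells (6), fibroblasts (5), oligodendrocytes (6), granule cells (6) or blood cells (2 of 7). Their summed levels in controls and Pcp2-cre mice were 242 to 253 and 258 to 267 CPM for endothelial cells, 155 to 170 and 159 to 164 CPM for mural cells, 116 to 119 and 109 to 137 CPM for fibroblasts, 3536 to 3749 and 4140 to 4352 CPM for oligodendrocytes, 4011 to 4220 and 4140 to 4310 CPM for granule cells, and 11.5 to 40.8 and 3.98 to 35.3 CPM for blood cells. Of 10 choroid plexus markers 8 were tested and 7 were called lower, with the sums given above.

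**Figure D5:**
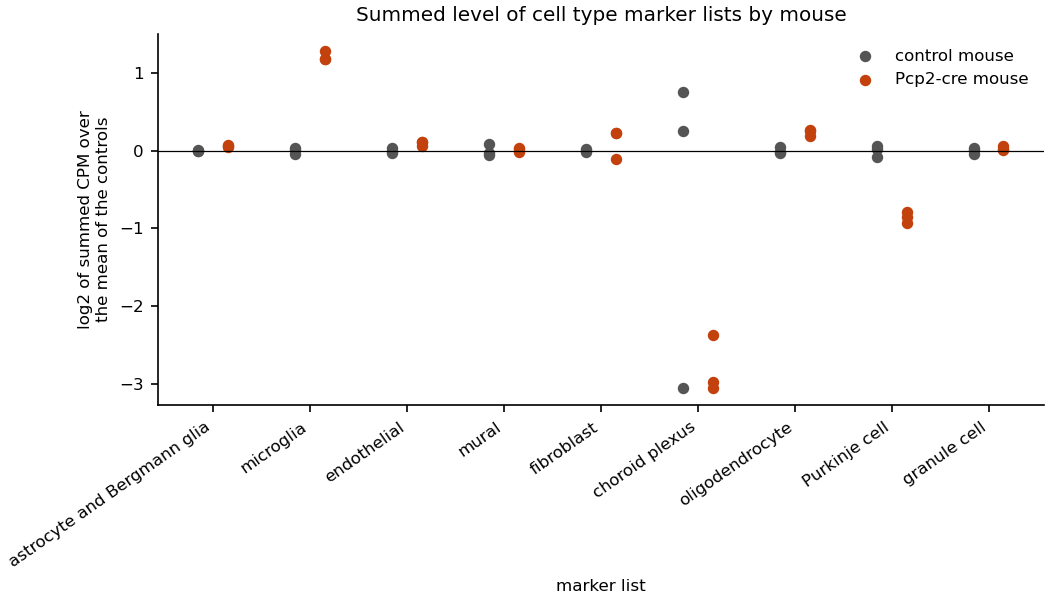
Summed CPM of 9 lists of cell type markers in each mouse, as log2 of its ratio to the mean of the controls. The microglial sum is above the controls in all 3 Pcp2-cre mice and the Purkinje cell sum below them, the astrocyte and Bergmann glia sum stays near 0, and control 3 lies with the Pcp2-cre mice for the choroid plexus.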

How the data were processed

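Total RNA of 6 cerebella (from mice perfused with PBS) was made into poly A-selected libraries, 1 per mouse. The authors deposited raw counts per gene and, separately, FPKM values. Their processing notes and methods name STAR, featureCounts and StringTie on GRCm39 with a Gencode annotation. The sources used here do not give tool versions, the Gencode release, strand use or how multi-mapped reads were handled, and 16 of the 33 genes have exons overlapping another gene, by at most 12.3% of their exon length (*Cd44*, *Aspg* and *S1pr3* among the called ones). The deposited counts were fitted here in R 4.3.3 with edgeR 4.0.16 (filterByExpr, minimum count 10; TMM; quasi-likelihood F-test on genotype), with DESeq2 1.42.0 and limma 3.58.1 as alternatives. CPM were scaled by TMM. Genes were called at the study's thresholds. At these the study reported fewer genes in each direction than the edgeR fit here called. Its counts were nearer to those of the DESeq2 fit here. The fit was tested on simulated data. Replicate mice differed by more than sampling noise (chi-square per gene 1.38 to 3.62), so none was a duplicate. The 33 genes and all lists were chosen with earlier results of these data known. All 33 genes, the called genes of each list and *Sting1* could be named. Uncalled list genes are named only where a statement turns on their values.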

Additional observations from a re-analysis of the deposited data

How the results depend on the processing

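Over the 27 tested genes and 402 alternative values, 366 kept direction and call, 17 kept direction and lost the call and 19 changed sign. *Gfap*, *Serpina3n*, *Aspg* and *B3gnt5* kept their calls throughout. The count of genes called higher, 8, was 4 with the DESeq2 Wald test, 5 with limma on log2(FPKM + 1) and also 5 on log2(FPKM + 0.1), and 5 at an absolute log2 fold change of 1 or more. The pan-reactive count of 7 was 4 with DESeq2 and 4 at that larger fold. With no fold threshold the genes lower were 2 in all and 1 in A1, and the A2 genes higher were 2. The A2 count higher was 0 with at least 10 counts in every mouse (a filter that drops *Cd14*), with DESeq2 and with both limma fits, and 0 to 1 on leaving out single mice. All-gene calls were 233 higher and 304 lower, and 141 and 226 with DESeq2, 185 and 232 with the choroid plexus score, and 158 and 185 with limma on log2(FPKM + 1).

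Each median below is over the genes fitted in that setting, so the gene set can differ from that of the main fit. In the main fit it was 0.26, over 27 genes. It was 0.16 with no filter (33 genes) and 0.15 when every mouse needed 10 counts or more (24 genes). DESeq2 gave 0.17 (33 genes), the choroid plexus score 0.30 (27 genes) and limma on log2(FPKM + 1) 0.16 (30 genes). Leaving out single mice gave 0.19 to 0.32 (27 or 28 genes). The pan-reactive median, 0.56, was 0.40, 0.48, 0.40, 0.57 and 0.34 in the same order, 0.44 on log2(FPKM + 0.1), and 0.49 to 0.56 leaving out single mice. The values with no filter and with DESeq2 include *Lcn2* and *Steap4*, which the main fit did not test. *Cd44*, the gene at the median of the main fit, had a log2 fold change of 0.55 in both. The lower medians there thus do not show that fold changes depend on the method. The A1 median, 0.06, was -0.030 and -0.044 in the limma fits with 1 and 0.1 added and -0.026 to 0.18 leaving out single mice, so it has no firm sign. The A2 median, 0.19, was 0.40 on log2(FPKM + 0.1). Among single genes, signs changed for uncalled ones near 0: *S100a6* was -0.029 and -0.032 in the limma fits with 1 and 0.1 added, *Fbln5* -0.072 and -0.100, *Synm* 0.0062, *Serping1* -0.048 and *Clcf1* -0.091 with the choroid plexus score, and leaving out single mice gave -0.063 to 0.21 for *Hspb1*, -0.0093 to 0.11 for *Cp*, -0.17 to 0.13 for *S100a6*, -0.24 to 0.20 for *Serping1*, -0.0091 to 0.19 for *Fbln5*, -0.17 to 0.27 for *Clcf1* and -0.022 to 0.28 for *Sphk1*. The causes were not tested.

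By the labels, mice with the same number in the 2 genotypes shared that number and their sex. Whether they shared a litter or a batch is not given there. Their deviations correlated at 0.0329, 0.0495 and 0.145, and not every mouse correlated best with its own number. With the replicate block, 8 genes were called higher and 1 lower, no call changed, *Serping1* was -0.0062, and all-gene calls were 229 and 319. Genes under about 10 counts per mouse are limited by depth.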
